A study of Mus musculus with 20 samples.

Results

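The 10 genes described here form the core of the circadian clock and its nearest outputs: Per1, Per2, Per3, Cry1, Nr1d1, Nr1d2, Dbp, Tef, Arntl (also called Bmal1) and Clock. They were chosen by name, and every probe set whose platform annotation gives exactly 1 of these symbols was taken, which gave 18 of the 22626 probe sets tested and 10 of the 12393 genes named on the array. Whole kidneys of 20 Balb/c mice were measured on Affymetrix mouse expression arrays, 1 array per animal. Control males, control females, doxorubicin injected males and doxorubicin injected females made up 4 groups of 5. Doxorubicin, a drug that damages podocytes and induces albuminuria, was given intravenously at 12 mg/kg to mice of about 10 weeks. Kidneys were taken at day 14. The control mice are described as 10 weeks old, and the age of the treated mice at day 14 is not stated. A difference in age from the controls cannot be told apart from treatment. The labels name no genetic change in any animal and no vehicle injection for the controls. Neither the labels nor the methods give a time of day for the sampling, so that time of day cannot be told apart from animal, sex or treatment in what follows.

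The mammalian clock is a transcriptional loop that runs in most cells, the kidney among them. ARNTL pairs with CLOCK, or with its relative NPAS2, and activates genes through E-box sequences. The PER and CRY proteins are made in response and repress that pair. NR1D1 and NR1D2 (REV-ERB alpha and beta) repress Arntl through a second DNA element, the RRE, and DBP and TEF are transcription factors that carry the rhythm to output genes through the D-box. In mouse tissues the transcript of Arntl peaks at nearly the opposite time of day to Nr1d1 and Dbp, and those of Per1, Per2 and Per3 peak somewhat later than Nr1d1.

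Motifs of the kinds named in this loop were found in the promoter windows of some members. RefSeq promoter windows (GRCm38.p6, 250 bases before to 50 after each annotated start) were searched on both strands for the E-box CACGTG, the D-box TTATGTAA and the RRE written ANTAGGTCA, with N any base. The motifs do not overlap one another in the stretches shown. Of all 32851 windows of this length, 7.15% hold the E-box, 0.94% the D-box and 0.66% the RRE. The stretches around each match in a member gene are shown because these are the motifs named in the loop above, with the matched bases in capitals.
Per1 E-box, chr11:69098756-69098815, plus strand: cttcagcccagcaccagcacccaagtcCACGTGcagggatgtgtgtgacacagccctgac
Cry1 E-box, chr10:85185082-85185141, minus strand: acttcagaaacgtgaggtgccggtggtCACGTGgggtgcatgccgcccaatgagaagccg
Tef E-box, first start, chr15:81802519-81802578, plus strand: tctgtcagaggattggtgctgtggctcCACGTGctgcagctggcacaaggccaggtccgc
Tef E-box, second start, chr15:81811249-81811308, plus strand: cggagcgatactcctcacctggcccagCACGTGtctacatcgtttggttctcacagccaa
Per3 D-box, farther from the start, chr4:151044836-151044897, minus strand: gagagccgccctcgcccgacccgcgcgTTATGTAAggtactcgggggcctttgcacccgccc
Per3 D-box, nearer to the start, chr4:151044789-151044850, minus strand: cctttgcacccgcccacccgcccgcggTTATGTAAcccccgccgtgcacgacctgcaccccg
Arntl RRE, just after the second annotated start, chr7:113207529-113207558, plus strand: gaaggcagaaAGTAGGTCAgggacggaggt

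The E-box began 166 bases before the start in Per1 and 60 bases before it in Cry1. The D-boxes of Per3 began 205 and 158 bases before the start. The E-box of Per1 and the RRE of Arntl each lay in 1 of the 2 windows of the gene. No window of Dbp, Nr1d1, Nr1d2 or Clock held any of the 3 motifs, which says only that these letters are not in these windows. For Per2 there was no window to search. A match is a description of the sequence and not a measured binding site.

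Values below are log2 of the deposited GCRMA intensity (GCRMA is a background correction and normalization for Affymetrix arrays), and differences are differences of these log2 values. As a measure of background, 95% of the values of Y-linked probe sets in female kidneys lay under 2.84. Levels of different probe sets were not set against each other, since probes differ in affinity. For a gene with several probe sets the brightest is given unless another is named. Each array is 1 whole kidney RNA, in which fewer cells of a type and less RNA per cell cannot be told apart, and p-values measure the spread between these animals.

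Quality marks of the arrays come first, because they touch several results. The array controls include a probe set for the 5′ part of the pyruvate carboxylase transcript. It lay above 3 on 6 arrays: control males M13 and M12, control female FNo5 and doxorubicin males M7, M9 and M11. These are all of the males numbered without a prefix, so the number series of the males and the 5′ signal cannot be told apart. All 7 of the kidney markers measured were above background, and 4 of 6 adrenal markers were at background, with sums of 112.1 to 129.6 on the linear scale in all 20 kidneys. The summed level of 6 perirenal fat markers was 30088.1 in F10-3 and 2834.9 to 15586.0 in the other animals, with Lep at background. Among 7 blood markers, Hba-a1, Cd3e and Cd79a were at background, and the sums were 244.3 to 896.0 in controls, 356.8 to 4871.6 in doxorubicin males and 2521.4 to 5890.1 in doxorubicin females. No array was a copy of another: the closest pair, F5 and F10-4, had a median absolute difference of 0.0634.

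The clock genes differed more between animals of 1 group than most genes did. The SD within groups had a median of 1.02 over the 10 genes, beside 0.211 over all probe sets and 0.278 over the brighter 11313 of them. For 7 of the 10 genes it was above the SD of 9 in 10 of the brighter probe sets, a level of 0.575. Cry1 varied most, with an SD of 1.39, and Tef least, with 0.34. For some genes much of this spread came from control female F1. Without F1 the SD of Dbp fell from 0.999 to 0.613 and that of Arntl from 1.213 to 0.647. That of Cry1 fell less, from 1.39 to 1.23, and those of Per1 and Per3 rose slightly. The map of deviations is drawn from the mean of all kidneys, so differences between groups enter it as well.

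**Figure D1:**
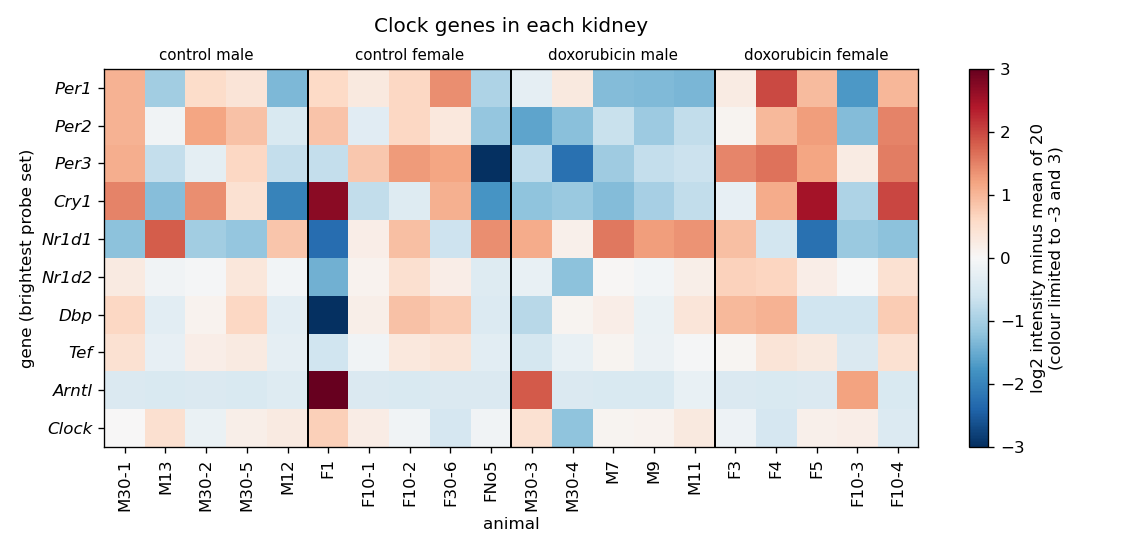
Each row is a clock gene by its brightest probe set and each column a kidney, grouped by sex and treatment. Colour gives the log2 intensity minus the mean of all 20 kidneys (red above, blue below, limited to 3 either way), and control female F1 shows the strongest colours, with Arntl at 7.22 and Dbp at 9.22.

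Arntl, the gene of the activator, was detected in 3 animals. Its probe set read 7.22 in control female F1, 4.86 in doxorubicin male M30-3 and 4.23 in doxorubicin female F10-3. The other 17 kidneys lay between 2.55 and 2.78, within background. The 3 animals come from 3 different groups, and no control male was among them.

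Npas2, the relative of Clock that can take its place beside ARNTL, stood above background in 2 animals. They were M30-3 at 4.43 and F10-3 at 4.92, both of which also had Arntl signal. F1 was at 2.69 and the others between 2.41 and 2.68.

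Clock itself varied less. In control males it read 8.53, 8.99, 8.32, 8.68 and 8.77, and in control females 9.23, 8.73, 8.39, 8.01 and 8.40. In doxorubicin males the values were 8.96, 7.31, 8.59, 8.61 and 8.79, and in doxorubicin females 8.37, 8.0, 8.67, 8.72 and 8.10. F1 was the highest of all 20 and M30-4 the lowest, and the groups overlapped.

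Dbp, the output factor whose transcript swings widely over the day in mouse tissues, was lowest in the same control female. It read 9.22 in F1, where the other 4 control females were at 12.63, 13.34, 13.22 and 12.05. Control males read 13.07, 12.13, 12.57, 13.07 and 12.15, doxorubicin males 11.62, 12.54, 12.66, 12.25 and 12.82, and doxorubicin females 13.42, 13.49, 11.87, 11.86 and 13.23. F1 lay 3.41 below the median of the other 19 animals, and 4.18 below it by the second Dbp probe set (5.90, with the others between 9.00 and 10.98). The next lowest was M30-3.

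F1 also had the lowest value of the 20 kidneys for Nr1d1 (3.30), Nr1d2 (10.98) and Tef (10.66), and the highest for Cry1 (9.02) and for Nfil3 (7.32), a repressor that binds the same D-box as DBP and TEF. For Nfil3 the other 19 animals lay between 1.66 and 5.20. Per1 of F1 was 6.79, Per2 was 9.45 and Per3 was 5.51, within the range of the other animals. By the dim second Per2 probe set F1 was the highest, at 4.64, with the others between 1.92 and 4.51. F1 had no 5′ pyruvate carboxylase signal, the lowest blood marker sum of the control females and kidney markers within the range of its group. Mean and SD of the control females in Dbp, Arntl and Cry1 therefore include 1 animal far from the other 4.

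M30-3 and F10-3, the other animals with Arntl signal, were like F1 in some genes and unlike it in others. Tef was next lowest after F1 in M30-3, at 10.74, and then in F10-3, at 10.83. M30-3 differed from F1 in its Nr1d1 of 6.70, Nfil3 of 3.90, Cry1 of 5.09 and Per2 of 7.02, the lowest Per2 of all animals. F10-3 differed from F1 in its Cry1 of 5.39, Nfil3 of 4.12 and Per1 of 4.48, the lowest Per1 of all. The fat marker sum of F10-3 was the highest of the 20 kidneys, whose part in these values was not tested.

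Whether the members moved together within groups was tested across the 20 animals on deviations from the group mean, with Dbp as the reference. Of 11 relations in the family (9 clock genes, and the 3′ minus 5′ signal of Gapdh and of Actb as marks of RNA length), 4 passed an adjusted p of 0.05 by a permutation test within groups with 100000 resamples, two-sided. They were those of Tef, Nr1d2, Clock and Arntl. The call of Arntl was lost without F1 (permutation adjusted p = 0.0614), without M30-3 (0.0932) or without F10-3 (0.051).

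Tef rose and fell with Dbp, with Pearson's r = 0.758 (permutation p = 1.60e-04, adjusted p = 0.00176) and Spearman's rho = 0.737 (permutation p = 0.00136, adjusted p = 0.00525). Without F1 and F10-3, the animals farthest from the median of Dbp, r was 0.688. Nr1d2 did so too, with r = 0.796 (permutation p = 0.00206, adjusted p = 0.0113), rho = 0.821 (permutation p = 1.30e-04, adjusted p = 0.00143) and r = 0.586 without those animals. Clock ran the other way, with r = -0.597 (permutation p = 0.00431, adjusted p = 0.0158), rho = -0.657 (permutation p = 0.00467, adjusted p = 0.0103) and r = -0.455 without them.

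Arntl falls into 3 animals with signal and 17 at background, so no coefficient over all 20 is given for it. Among the 17, r with Dbp was -0.002. Leaving out the 3 animals with Arntl signal also ended the calls of Tef (r = 0.642, permutation adjusted p = 0.0588) and Clock (r = -0.334, permutation adjusted p = 0.189), while Nr1d2 (r = 0.567, permutation adjusted p = 0.0130) and Per3 (r = 0.638, permutation adjusted p = 0.0110) passed, so that 2 genes passed in place of 4. Without F1 alone, Clock gave r = -0.478 (permutation adjusted p = 0.0614), and with deviations from the mean of all 20 animals in place of the group mean r = -0.576 (permutation adjusted p = 0.0501).

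Per3 passed by ranks over all animals (rho = 0.722, permutation adjusted p = 0.00525) but not by Pearson's r (0.464, permutation adjusted p = 0.358), with r = 0.706 without FNo5 (permutation adjusted p = 0.0191) and r = 0.587 without F1 (permutation adjusted p = 0.0254). Per1 (r = 0.289), Per2 (0.139), Nr1d1 (0.393) and Cry1 (-0.213) did not pass, with permutation adjusted p between 0.358 and 0.633. The RNA length marks did not pass either, at r = 0.302 for Gapdh and 0.288 for Actb (permutation adjusted p = 0.575 for each). Within the 14 arrays without 5′ pyruvate carboxylase signal, r was 0.786 for Tef, 0.819 for Nr1d2 and -0.689 for Clock. Within the 10 animals numbered without a prefix it was 0.443 for Tef, 0.989 for Nr1d2 and -0.872 for Clock. Per3 was at 0.709 in the 14 arrays but at -0.714 in these 10 animals. Per1 (-0.48), Per2 (-0.83), Cry1 (-0.926) and Nr1d1 (0.915) were there too far from their values over all animals. F1 is in both subsets, and F1 and FNo5 are the only control females without a prefix. The other subsets held 5 animals or fewer, too few for a coefficient. In those of 5 the sign was kept for Tef, but it was the opposite for Nr1d2 in the 30- series and for Clock on the arrays with 5′ signal.

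**Figure D2:**
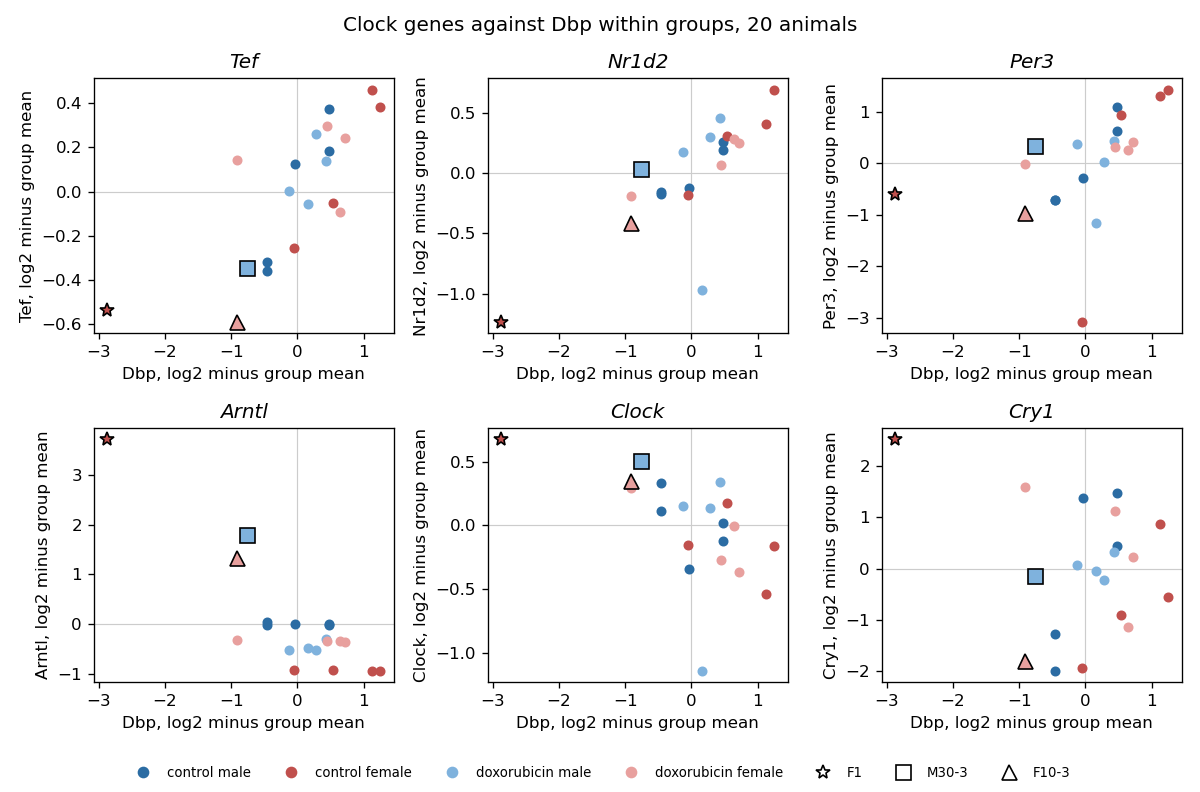
Each panel plots 1 clock gene against Dbp, both as log2 intensity minus the group mean, with 1 point per animal (20), coloured by group, and larger marks for F1, M30-3 and F10-3. Tef and Nr1d2 run upwards with Dbp (r = 0.758 and 0.796), Clock runs downwards (r = -0.597), and Arntl shows 3 animals above a flat line of 17.

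The sexes were compared first in control kidneys, with limma over all probe sets. Of the 18 clock probe sets, 0 passed the adjusted p of 0.003, where 2.42% of all probe sets did. At an unadjusted p under 0.05, 1 clock probe set passed (a dim one of Nr1d2, -2.0, SE 0.94) beside 4517 of all 22626. The methods' t-test called 0. The study's text applies that t-test to its human samples and another test, SAM, to its mice. None of the 18 had groups that did not overlap, as 7.55% of all probe sets had. The median absolute difference was 0.339 for the clock probe sets and 0.116 for all. The value for all includes many dim probe sets, which can differ little. Among the upper 60% of probe sets by mean it was 0.365 for 14 clock probe sets and 0.253 for all. Per1 had means of 6.12 ± 1.05 (male) and 6.59 ± 0.84 (female), and Dbp 12.60 ± 0.47 and 12.09 ± 1.69 (each SD over 5 animals). Without F1 the Dbp difference changed sign, from -0.51 to 0.21, and that of Cry1 from 0.16 to -0.47. Leaving out M30-3 and F10-3 as well gave the same values, since these are doxorubicin animals. Neither difference passed the test in any of these fits.

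After doxorubicin no member passed between the sexes either, and Per3 and Per2 came nearest. Per3, a repressor arm gene with less effect on the core loop than Per1 and Per2, read 5.48, 4.00, 5.17, 5.52 and 5.59 in doxorubicin males and 7.71, 7.86, 7.42, 6.47 and 7.76 in doxorubicin females. The ranges did not overlap, which held for 1 of 18 clock probe sets and 9.71% of all. The difference was 2.29 (female minus male, SE 0.69, limma adjusted p = 0.0540). In control kidneys the same probe set read 7.32, 5.53, 5.95, 6.86 and 5.53 in males and 5.51, 7.04, 7.52, 7.41 and 3.03 in females, which overlap.

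Per2, one of the principal repressors with PER1, read 7.02, 7.34, 7.94, 7.50 and 7.87 in doxorubicin males. In doxorubicin females it was 8.68, 9.58, 9.84, 7.30 and 10.08. All but F10-3 lay above every male, and the difference was 1.56 (SE 0.50, limma adjusted p = 0.0691). Control males were at 9.64, 8.50, 9.78, 9.47 and 8.15, and control females at 9.45, 8.25, 9.22, 8.92 and 7.44.

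Cry1, the repressor partner of the PER proteins, read 5.09, 5.20, 5.01, 5.31 and 5.57 in doxorubicin males and 6.06, 7.41, 8.80, 5.39 and 8.32 in doxorubicin females. The difference was 1.96 (SE 0.86, limma adjusted p = 0.181), with F10-3 again among the males. The males of this group lay within a narrow band, SD 0.22, where the SD was 1.45 in the females and 1.58 in control males. Control males gave 7.79, 5.03, 7.70, 6.77 and 4.32, and control females 9.02, 5.57, 5.94, 7.37 and 4.54.

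Nr1d1, the repressor of Arntl, had the opposite sign. It read 6.70, 5.74, 7.16, 6.84 and 6.94 in doxorubicin males and 6.50, 5.03, 3.36, 4.48 and 4.36 in doxorubicin females, a difference of -1.93 (SE 0.73, limma adjusted p = 0.125). Only the female F3 reached the range of the males.

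In this comparison 0 of 18 clock probe sets passed the adjusted p of 0.003, beside 1.61% of all. At an unadjusted p under 0.05 there were 7, beside 22.2% of all, and the median absolute difference of the 18 was 0.692 beside 0.126. Among the upper 60% by mean the median was 1.001 beside 0.271. Of the doxorubicin arrays, those of males M7, M9 and M11 and of no female had 5′ pyruvate carboxylase signal. On the 6 arrays with that signal Cry1 read 4.32 to 5.57 and Per3 3.03 to 5.59, and on the other 14 arrays 5.09 to 9.02 and 4.00 to 7.86. Leaving out the 6 arrays kept only M30-3 and M30-4 of the doxorubicin males. Per3 of M30-4, at 4.00, was the lowest of that group. Without the 6 arrays 3 of 18 had an unadjusted p under 0.05, and Per3 differed by 2.71 (SE 0.62, limma adjusted p = 0.0283), Per2 by 1.92, Cry1 by 2.05 and Nr1d1 by -1.48. With the Gapdh covariate there were 4. The methods' t-test at an unadjusted p under 0.01 called 2, Per3 and Nr1d1, beside 9.71% of all probe sets, and 0 after Benjamini-Hochberg adjustment.

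**Figure D3:**
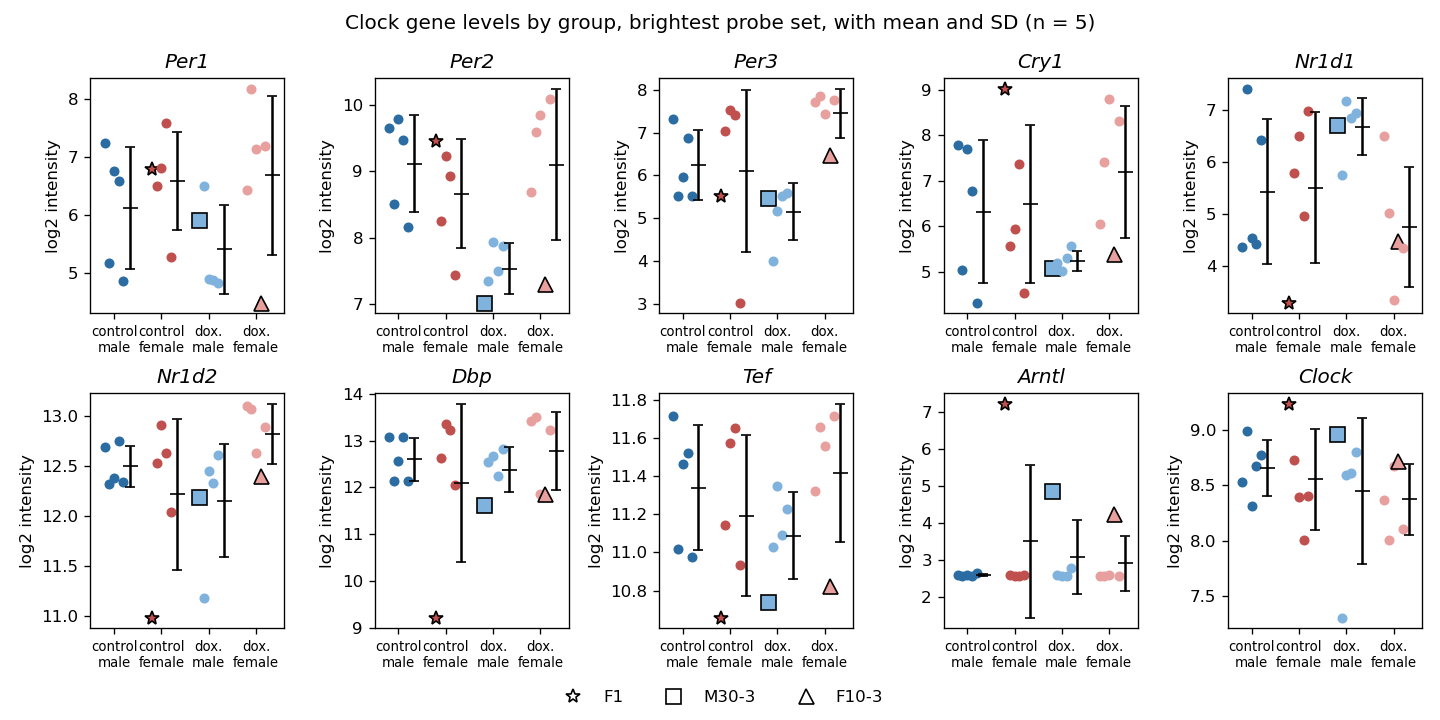
Each panel gives the log2 intensity of 1 clock gene in the 4 groups, 1 mark per animal with the mean and SD of 5 beside it, and separate marks for F1, M30-3 and F10-3. The doxorubicin males lie low and close together in Cry1 (SD 0.22) and Per2 (SD 0.38), and for Per3 none of them reaches the lowest doxorubicin female at 6.47.

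Doxorubicin was set against control within each sex, with the same control and treated arrays as above, so these comparisons share samples with those between the sexes. In males the Per2 ranges did not overlap: treated animals lay between 7.02 and 7.94 and controls between 8.15 and 9.78. The difference was -1.58 (SE 0.50, limma adjusted p = 0.384). By the second, dim Per2 probe set (-1.17, SE 0.56, limma adjusted p = 0.665) all 5 treated males were at background. So were control males M13 (2.275) and M12 (2.286). Treated male M9 also read 2.275, so by this probe set the groups were apart only before rounding and within background. Counted with it, 2 of 18 clock probe sets did not overlap, both of 1 gene, beside 1.40% of all. Per1 differed by -0.72 (SE 0.64), Per3 by -1.09 (SE 0.69), Cry1 by -1.09 (SE 0.86) and Nr1d1 by 1.25 (SE 0.73).

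None of these differences passed: 0 of 18 clock probe sets were called at an adjusted p of 0.03, beside 0.0530% of all probe sets. At an unadjusted p under 0.05 there was 1 (Per2), beside 7.53%. The methods' t-test called Per2 alone at an unadjusted p under 0.01, as it did 1.26% of all probe sets, and 0 after adjustment. The median absolute difference was 0.601 beside 0.078, and 0.765 beside 0.155 among the upper 60% by mean.

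In females, treated and control kidneys overlapped in every clock probe set, where 1.68% of all probe sets did not. Per3 differed by 1.34 (SE 0.69), Nr1d2 by 0.60 (SE 0.31) and Per2 by 0.44 (SE 0.50). At an adjusted p of 0.04, 0 of 18 were called by limma beside 0.0398% of all, 0 at an unadjusted p under 0.05 beside 4.73%, and 0 by the methods' t-test. The Dbp difference was 0.68 (SE 0.62) with F1 among the controls.

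An interaction term then tested whether males and females responded differently. By its estimate Per2 was 2.01 (SE 0.71, limma adjusted p = 0.612), Per3 2.43 (SE 0.98, limma adjusted p = 0.702) and Nr1d1 -2.01 (SE 1.04, limma adjusted p = 0.778). At an adjusted p of 0.05, 0 of 18 were called beside 0.00442% of all. At an unadjusted p under 0.05 there were 3 (Per2, Per3 and Nr1d2), beside 6.33%, and no other tool was run for the interaction.

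Other genes linked to the clock were read in the same fits. Of 14 other clock genes measured, 0 passed in any of these 5 comparisons, in which at most 2.42% of all probe sets were called. Csnk1e, a kinase that marks PER proteins for degradation, came nearest in controls, at 0.91 female minus male (SE 0.25, limma adjusted p = 0.0328 against the threshold of 0.003), and Cry2 after doxorubicin, at 0.73 (SE 0.23, limma adjusted p = 0.0658). Fbxw11 gave -0.19 in controls (SE 0.06, limma adjusted p = 0.0797). Of 13 clock output genes, 0 passed. The nearest in controls were Scnn1a, a subunit of the epithelial sodium channel, at 0.79 (limma adjusted p = 0.00602) and Avpr2, the vasopressin receptor of the collecting duct, at 1.21 (limma adjusted p = 0.00687). After doxorubicin they were Slc6a6, a taurine transporter, at -0.99 (limma adjusted p = 0.0384) and Noct at 1.08 (limma adjusted p = 0.0749).

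Glucocorticoid hormone also follows the time of day, and 12 of its target genes were read. In control kidneys 1 of 12 passed, beside 2.42% of all probe sets. It was Errfi1, lower in females by 0.67 on the log2 scale (-0.67, SE 0.10, limma adjusted p = 2.90e-04, ranges apart). In the other comparisons 0 of 12 passed by their brightest probe set, and a dimmer one of Klf9 was lower in doxorubicin females than in doxorubicin males (-0.77, SE 0.14, limma adjusted p = 0.00213). Cebpd gave 2.35 in controls (limma adjusted p = 0.00682) and 2.28 after doxorubicin (limma adjusted p = 0.0103). Of 9 temperature responsive genes, 0 passed in the 5 comparisons, with Hspd1 nearest between the sexes in controls (-0.46, limma adjusted p = 0.0991) and Hspa8 after doxorubicin (-0.12, limma adjusted p = 0.562).

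Between doxorubicin and control kidneys none of these lists had a gene that passed. In males the nearest were Csnk1d at 0.25 (limma adjusted p = 0.610) and Csnk1e at 0.53 (0.660) among the other clock genes, and Alas1, the first enzyme of heme synthesis, at -0.51 (0.551) and Insig2 at -0.18 (0.671) among the outputs. Lcn2, a gene that injured tubules induce, differed by 3.62 (SE 1.13, limma adjusted p = 0.379) and Hspd1 by -0.27 (0.723). In females they were Fbxw11 at 0.17 (limma adjusted p = 0.715), Bhlhe40 at 0.32 (1.00), Noct at 0.66 (1.00), Lcn2 at 1.59 (1.00) and Cirbp at 0.98 (0.980).

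The animals' own numbers form series that cross the male groups. Control males M30-1, M30-2 and M30-5 and doxorubicin males M30-3 and M30-4 carry the prefix 30-, while control males M13 and M12 and doxorubicin males M7, M9 and M11 have none. What the prefix stands for is not given in the sources used here. Within the treatment groups, 3179 of 22626 probe sets, or 14.1%, differed between the series at a limma adjusted p under 0.05, and 4 of the 18 clock probe sets did.

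Per1 was lower in the males without prefix. It read 7.24, 6.75 and 6.59 in the 30- controls and 5.92 and 6.50 in the 30- doxorubicin males, against 5.16 and 4.85 in the controls without prefix and 4.89, 4.87 and 4.82 in the doxorubicin males without prefix. The ranges did not overlap, and the difference was -1.60 (SE 0.18, limma adjusted p = 0.00127). With the 3′ minus 5′ signal of Gapdh as a covariate it was -1.23 (limma adjusted p = 0.0508).

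Nr1d1 was higher in the males without prefix, at 7.39 and 6.42 in controls and 7.16, 6.84 and 6.94 after doxorubicin, against 4.37, 4.55, 4.42, 6.70 and 5.74. The difference was 1.61 (SE 0.38, limma adjusted p = 0.0279). The call was lost without M30-1, M30-2, M30-5, M12, M30-4 or M7, with limma adjusted p between 0.0529 and 0.0777, and with the Gapdh covariate (0.287). Over all 20 arrays, the 6 with 5′ pyruvate carboxylase signal read 6.42 to 7.39 for Nr1d1 and the other 14 read 3.30 to 6.70.

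The remaining clock calls were 2 dim probe sets of Tef. The dimmest Tef probe set was higher without prefix by 5.12 (SE 0.28, limma adjusted p = 5.01e-05), and the other dim one by 4.03 (SE 0.28, limma adjusted p = 1.63e-04). Over all 20 arrays the first read 6.69 to 8.25 on the 6 arrays with 5′ pyruvate carboxylase signal, FNo5 included, and 2.09 to 2.90 on the other 14. The second read 7.63 to 8.75 and 2.73 to 4.88. The brightest Tef probe set did not follow, at 10.94 to 11.35 and 10.66 to 11.72, with a series difference of -0.12 (SE 0.18, limma adjusted p = 0.794).

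Values did not overlap between the series for 3 of 18 clock probe sets (Per1 and both dim Tef probe sets), beside 12.8% of all, and 5 had an unadjusted p under 0.05, beside 26.0%. The median absolute difference was 0.494 for the clock probe sets and 0.120 for all, and 0.505 and 0.264 among the upper 60% by mean.

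The series was also compared within each treatment. This used a fit of the 10 male arrays with a mean for each treatment and series, so the SEs pool the spread of both treatments. Between the control males of the series, 8 of 18 clock probe sets had a limma adjusted p under 0.05, beside 6.51% of all. Per2 was lower without prefix by 1.30 (-1.30, SE 0.18, limma adjusted p = 0.0107), with 8.50 and 8.15 against 9.64, 9.78 and 9.47. Cry1 was lower as well (-2.75, SE 0.36, limma adjusted p = 0.00892), with 5.03 and 4.32 against 7.79, 7.70 and 6.77, and Nr1d1 was higher (2.46, SE 0.35, limma adjusted p = 0.0113). Each of these comparisons sets 2 animals against 3.

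Between the doxorubicin males of the series, in the same fit, 3 of 18 passed, beside 8.74% of all: Per1 (-1.35, SE 0.24, limma adjusted p = 0.0180) and both dim Tef probe sets. Per2 differed there by 0.59 (SE 0.18, limma adjusted p = 0.102) and Cry1 by 0.15 (SE 0.36, limma adjusted p = 0.863). The change of the series difference between treatments was called for 0 of 18, beside 0.239% of all probe sets, and Per2 came nearest (1.89, SE 0.26, limma adjusted p = 0.0558).

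Set by series, the treatment values of Per2 were 7.02 and 7.34 against 9.64, 9.78 and 9.47 for the 30- males, and 7.94, 7.50 and 7.87 against 8.50 and 8.15 for those without prefix. The doxorubicin males lay below the controls in both series. For Cry1 the treated males lay below the controls in the 30- series, at 5.09 and 5.20 against 7.79, 7.70 and 6.77. In the series without prefix they were at 5.01, 5.31 and 5.57 against 5.03 and 4.32, and overlapped.

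The temperature responsive genes also differed between the series, in 5 of 9 genes by their brightest probe set, beside 14.1% of all probe sets. Cirbp, an RNA binding protein induced by cold and known to follow the daily body temperature cycle, was lower without prefix (-1.46, SE 0.18, limma adjusted p = 0.00176, ranges apart), with 7.66, 7.37, 7.88, 7.69 and 8.25 against 8.55, 8.59, 8.94, 9.45 and 9.90. The chaperone genes Hsph1 (0.90, limma adjusted p = 0.00433), Hsp90aa1 (0.71, limma adjusted p = 0.0140), Hspa8 (0.32, limma adjusted p = 0.0146) and Hspa5 (0.74, limma adjusted p = 0.0101) were higher. Among the other lists, also by brightest probe set, Csnk1e was lower (-0.73, limma adjusted p = 0.0367) as 1 of 14 other clock genes. Nfkbia was higher (0.56, limma adjusted p = 0.0239) as 1 of 12 glucocorticoid targets, and 0 of 13 clock output genes were called. These shares of each list were under those 14.1%. The count of clock probe sets includes dim ones, so these shares cannot be set beside it. Some dim probe sets of these lists also separated by series, and others, such as those of Wee1 and Nampt, overlapped. A dim Slc6a6 probe set read 4.84 to 6.73 without prefix and 2.98 to 3.09 with it. A dim Fbxw11 one read 5.38 to 7.37 and 2.50 to 4.0. The part of the 5′ signal in these differences was not tested, and in males it cannot be told apart from the series.

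**Figure D4:**
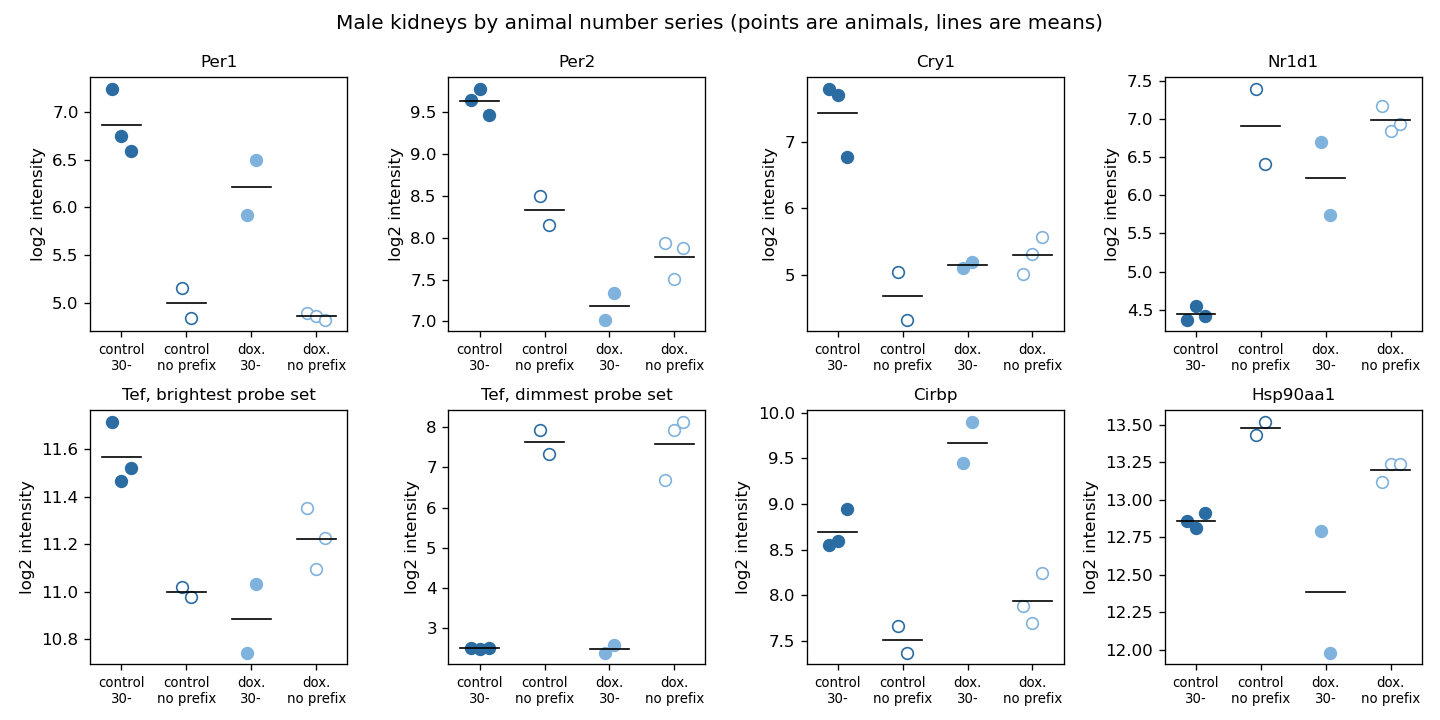
Each panel gives log2 intensity in the 10 male kidneys, split by treatment and by animal number series (filled points for the prefix 30-, open points for no prefix), with lines at the means. Per1 and Cirbp are lower without prefix in both treatments, Per2 and Cry1 in controls, and the dim Tef probe set is near 2.5 with the prefix and at 6.69 or more without it.

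The genes whose pattern over animals was most like the clock genes were ranked against a clock index. The index is the mean standardised deviation from the group mean of Per1, Per2, Per3, Dbp, Tef, Nr1d1 and Nr1d2, minus that of Arntl and Clock. It was lowest in F1 (-3.44), F10-3 (-2.21) and M30-3 (-1.52) and highest in F30-6 (1.75). F1, F10-3 and M30-3 are the animals with Arntl signal, which the index subtracts, so their low place is partly built in. Among 10417 probe sets of other genes that are brighter than the median, Mknk2, a kinase of the translation factor eIF4E, ran closest with the index (Pearson's r = 0.842 over 20 animals, 0.855 without F1). The next were 0610040J01Rik (0.810), Vasn (0.773), Rab3a (0.768), Ssx2ip (0.751), Slc38a10 (0.744), Phykpl (0.735) and Ypel5 (0.734).

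On the opposite side, Slc16a1, the lactate and pyruvate transporter MCT1, had r = -0.828 over the 20 animals (-0.765 without F1), and Ndrg1, a gene induced by cell stress, -0.770 (-0.703 without F1). Mtch2 (-0.769), Rdh10 (-0.747), Itga6 (-0.747), Derl2 (-0.743), Sec22b (-0.712) and Macrod2 (-0.708) followed. Without F1, Mtch2 was at -0.464, Itga6 at -0.472 and Macrod2 at -0.400. These coefficients are a description of 20 animals that share arrays and a normalization with the index, and no test was made.

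Known clock-linked genes of the lists can be placed on the same scale. Over all 20 animals Usp2, a deubiquitinase with a strong daily rhythm, had r = 0.571 with the index. Npas2 was above background in 2 animals only, so no coefficient is given for it. Without F1, Usp2 was at 0.775, Wee1 went from 0.392 to 0.812 and Cry2 from 0.327 to 0.71. Hlf, the third relative of DBP and TEF, went from 0.386 to 0.618. These are among the highest of the lists, and the output gene Sgk1 (0.659) and the glucocorticoid target Tsc22d3 (0.648) also stood above Hlf. Other clock-linked genes did not follow the index without F1: Rora (-0.053), Csnk1d (0.025), Pdk4 (-0.295), Insig2 (-0.193) and Tfrc (0.004). In F1, Wee1 read 9.86, Cry2 8.15 and Usp2 11.61, each within the range of the other 19 animals, while its Dbp, Nr1d1 and Nr1d2 were below all of them.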

How the data were processed

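Total RNA of whole kidneys was extracted with Trizol, labelled by the Affymetrix One-Cycle protocol and hybridised to 1 array per animal. The authors read the scans into Array Assist and normalized them with GCRMA, which the submitters' processing notes also name (version not given in the sources used here), and deposited linear intensity values per probe set. For this report the intensity was taken to log2. Of 22690 probe sets, 64 array controls were left out and 22626 tested, of which 20380 have 1 gene symbol in the platform annotation, 691 several and 1555 none. Depth does not apply to arrays, and 5 arrays per group limit the precision.

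A limma fit (3.58.1, R 4.3.3) with 4 group means over all 20 arrays (16 residual degrees of freedom) gave each group comparison, with Benjamini-Hochberg adjustment over all probe sets. Calls were made at an adjusted p of 0.003 for the sexes, 0.03 for doxorubicin in males, 0.04 in females and 0.05 for the interaction. The false discovery rates are the study's, whose SAM test was not run. The number series was fitted in the 10 male arrays with treatment as a term (7 residual degrees of freedom), at 0.05. The fit was tested on simulated data with known changes. Correlations and figures used Python 3.11.15 with numpy 2.4.6 and pandas 2.3.3. Alternatives were another threshold, the methods' t-test (which the study's text applies to its human samples), only the groups compared, another variance prior, median centring, quantile normalization, a filter on dim probe sets, number series as a block, a Gapdh covariate and leaving out animals.

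The members and the lists (other clock genes, clock output genes, glucocorticoid targets, temperature responsive genes, and markers of kidney, perirenal fat, adrenal and blood) were chosen with earlier results of these data known. Named were all members, from each list the genes called or the nearest, and the 8 genes most and least like the clock index. Splits by Arntl and by 5′ signal were made after seeing the data. The comparison of the series within each treatment was added later to the planned fits. It used the 10 male arrays with a mean for each treatment and series. RefSeq promoter windows matched 9 of the 10 members. Human samples of the study were not analysed here.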

Additional observations from a re-analysis of the deposited data

Results flagged for a closer look

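In 6 of 40 sets of 5 animals (10 genes in 4 groups), 1 animal lay beyond Dixon's 95% limit of 0.71 for the gap over the range. That limit flags about 1 in 20 groups of independent normal values. The 10 genes share animals, and most Arntl values are at background, so the count of 6 is a description and cannot be set against that rate. Arntl gave 4 of the 6. Control female F1 was at 7.22, doxorubicin male M30-3 at 4.86 and doxorubicin female F10-3 at 4.23, each with its group otherwise at background. The fourth, control male M12 at 2.63, lies within background and 0.05 from its neighbour on the log2 scale.

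Doxorubicin male M30-4 gave the other two. Its Per3 was 4.00, lower by 1.17 than the next animal, and its Clock was 7.31, lower by 1.28. By the second Clock probe set it was also the lowest of the 20 animals, at 5.69. It had the highest blood marker sum of the doxorubicin males, 4871.6, whose part in these values was not tested.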

How the results depend on the processing

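The count of clock probe sets called stayed at 0 in the group comparisons and the interaction under the alternatives fitted, except by the methods' t-test at an unadjusted p under 0.01, which gave 2 between the sexes after doxorubicin and 1 for doxorubicin in males. For the number series it was 4, then 2 with the Gapdh covariate and 5 among the 14 clock probe sets in the upper 60% by mean. Of 11 relations with Dbp, 4 passed, and 2 without F1, M30-3 and F10-3. Leaving out single animals kept the group counts at 0, the number series between 3 and 4 and the Dbp relations between 3 and 5. No difference of a named gene was called with the opposite sign under any alternative, and the cause of the changes in call was not tested. Not fitted were the t-test for the interaction and the number series, the compared groups alone for those, and the number series as a block for itself. No paired analysis was possible because the groups share no animal numbers. With 5 animals a group and a median SD of 1.02 within groups, a missed threshold does not show that the clock genes were alike.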

Other observations

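Control female FNo5 had the lowest values of the control females for Per1 (5.26), Per2 (7.44), Per3 (3.03) and Cry1 (4.54), and the highest Nr1d1 (6.97). Control males M13 and M12 had lower Per1, Per2 and Cry1 and higher Nr1d1 than the other control males. These 3 animals are the control arrays with 5′ pyruvate carboxylase signal, and whether the signal bears on the clock genes was not tested.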
